A study of Homo sapiens with 8 samples.

Results

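ZNF367 encodes a zinc finger protein of the C2H2 type, the DNA-binding fold that many human transcription factors share. The Ago2 map of 293S cells listed 31 peaks under this gene symbol, of 22506 peaks in 6326 genes, and those 31 are described here. They were taken by the symbol alone, along a single transcript, NM_153695. The gene was picked because an earlier look at these data put its summed reads among the genes with the smallest p-values between emetine and control. Values of that contrast are therefore a description and were given no test.

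293S cells are a line derived from human embryonic kidney HEK293 cells, grown here as an adherent layer. One culture received emetine, an alkaloid that stops ribosomes during elongation, at 20 µg/mL for 60 minutes, and a second culture was left untreated as the control. Each culture was split into 3 aliquots for crosslinking and immunoprecipitation (CLIP), each with an Ago2 antibody of another manufacturer, and 1 aliquot for RNA-seq. The 8 libraries thus come from 1 culture per treatment, and a spread between libraries of a treatment is one between aliquots and antibodies, not between cultures.

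Ago2 carries a microRNA and is guided by it to matching stretches of messenger RNA, most often in the 3' UTR, where pairing of the microRNA's bases 2 to 8, the seed, is the main contact. Bound transcripts are as a rule translated less and degraded sooner. CLIP reads mark where Ago2 was crosslinked, and a peak is a stretch where such reads pile up.

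Libraries are numbered within each treatment by the falling weight of 1 read in the normalised value. No library could be assigned to an antibody, so equal numbers do not pair an emetine library with a control one. Values below follow this numbering, libraries 1, 2 and 3. Over all recovered peaks the emetine libraries held 40551, 104778 and 96882 reads, and the untreated ones 39444, 117507 and 103467. Library 1 stood apart in both treatments: 3' UTR peaks took 30.6% of its reads with emetine and 31.9% in the control, against 53.9% to 63.8% in the other 4 libraries. Of 5 genes that HEK293-derived cells are known to express, LIN28B, IGF2BP1, SOX11 and VIM had peaks, and PAX2 was not listed.

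Because the microRNAs bound to Ago2 were not measured, the seeds of 9 microRNAs, picked after the table had been seen and from general knowledge of HEK293-derived cells, were looked for in the 3' UTR of ZNF367. The mature forms are from RefSeq (GRCh38.p14), with the seed in capitals, and are shown because their seed letters were or were not found in this 3' UTR.
hsa-miR-17-5p: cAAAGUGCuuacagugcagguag
hsa-miR-19b-3p: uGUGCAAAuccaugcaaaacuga
hsa-miR-10a-5p: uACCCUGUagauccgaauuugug
hsa-miR-16-5p: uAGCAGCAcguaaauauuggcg
hsa-miR-195-5p: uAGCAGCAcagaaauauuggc

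The 3' UTR of the GENCODE 29 transcript (GRCh38) is 2296 nt long after the stop codon, and only the transcript's own strand was searched. The complement of the miR-17 seed, GCACTTT, occurred 2 times. Of 2401 other genes whose longest 3' UTR lay within 20% of this length, 32.6% had at least 1 such match and 6.5% at least 2. TTTGCAC, for miR-19b, and ACAGGGT, for miR-10a, occurred 1 time each, against 19.0% and 18.5% of those 3' UTRs with a match. The letters for miR-16 and miR-195, which share a seed (TGCTGCT), miR-92a (GTGCAAT), let-7a (CTACCTC), miR-103a (ATGCTGC) and miR-30a (TGTTTAC) were not in it. The 4 sites are printed 5' to 3' with the seed match in capitals, and are named by the position of the match counted from the first base after the stop codon.
miR-17 site at 163 to 169: ggtgagagagaactGCACTTTt
miR-10a site at 232 to 238: atggactgcacagtACAGGGTa
miR-17 site at 311 to 317: agttctcacaggaaGCACTTTc
miR-19b site at 719 to 725: ttaacttgggaactTTTGCACa
A match is a run of letters and not a shown site of binding. The peaks carry coordinates of another build (hg19), no sequence was read under them, and they were not assigned to these matches.

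ZNF367 was among the transcripts with the most Ago2 peaks. The median gene had 2 peaks, 99.4% of genes had fewer than ZNF367, and 32 genes had more. MLEC, NACC1, TXNIP and ZNF512B were also listed with 31. The peaks lie on chromosome 9 (hg19), minus strand, between 99148248 and 99180504, with positions as listed, since the start convention of the deposited coordinates is not given. Counted from the 5' end of the transcript, peaks 1 and 2 were classed as 5' UTR, peaks 3 to 9 as coding and peaks 10 to 31 as 3' UTR. They sat in 3 stretches of the genome, with gaps of 25130 and 4004 bases between them, on a transcript that has 5 exons in GENCODE 29.

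Peaks were densest in the 3' UTR. Per kb of region in the GENCODE transcript there were 9.58 peaks in the 3' UTR, 6.65 in coding sequence and 6.73 in the 5' UTR. The peaks covered 29.7% of the 3' UTR, 25% of the coding sequence and 25.9% of the 5' UTR. The 3' UTR held 71.0% of the ZNF367 peaks, against 57.6% of the peaks of the whole table. Widths ran from 17 to 80 bases with a median of 31. In 8 places a pair of peaks overlapped, so that a read can have been counted in each of them, and 23 peaks are left when 1 peak is kept per overlap. Peaks 30 and 31 shared all 6 read numbers.

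Summed over its peaks, ZNF367 held more Ago2 reads with emetine. The emetine libraries held 46, 266 and 288 reads on the gene, against 7, 93 and 146 in the untreated ones. Weighted by the value of 1 read in each library, the normalised reads were 408, 799 and 808 with emetine, against 56.0, 263 and 354 in control libraries. On these weights every emetine library lay above every control library. The same holds for 3.98% of the 2310 genes with at least 50 CLIP reads, a share from which nothing is read here, since the gene was picked on this contrast. Scaled instead by reads in all recovered peaks, the groups overlapped. Emetine library 1 held 46 of 40551 reads, a smaller share than the 146 of 103467 in control library 3.

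The means were 672 ± 229 normalised reads with emetine and 224 ± 153 in the control (SD, n = 3 libraries each). The ratio of depth-scaled read totals, 600 over 246 reads, was 2.71 (95% exact binomial interval 2.33 to 3.16), or 1.44 as a log2. Intervals here and below cover counting error only and treat reads as independent. Amplified reads are not independent molecules, and a read in overlapping peaks can count more than once in a sum. The intervals can therefore be too narrow even for counting error. On the scale of limma, the difference of mean log2(value + 1), it was 1.88 (SE 0.60). The shallowest library of each treatment gave a log2 ratio of 2.86, from 46 and 7 reads, and the deeper libraries gave 1.37.

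**Figure D1:**
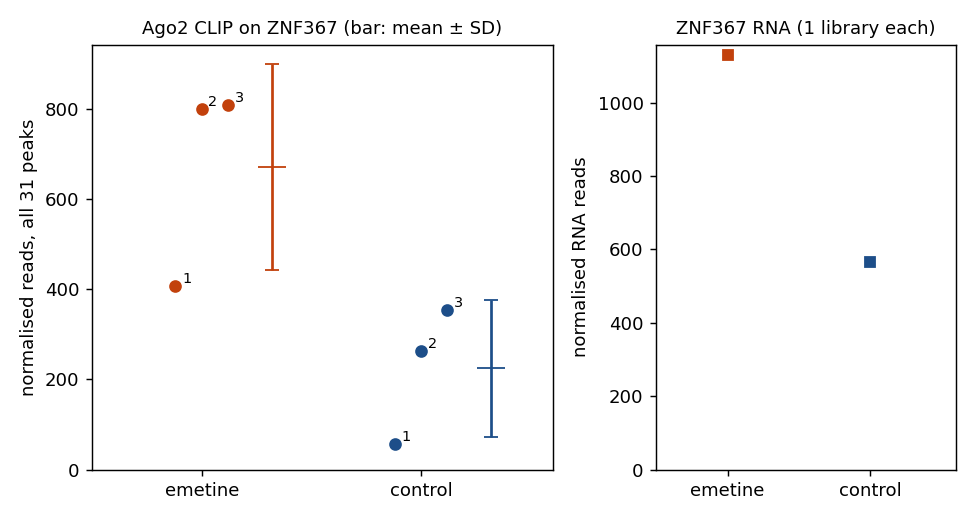
Normalised reads of ZNF367 in each library: left, Ago2 CLIP reads summed over the 31 peaks (points, numbered by library; bars, mean ± SD of 3 libraries), right, RNA reads (1 library per treatment). The emetine CLIP libraries lie between 408 and 808, above the control libraries at 56.0 to 354.

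Among genes with at least 50 CLIP reads, 11.4% had a larger one, and 18.7% had a log2 ratio above 1. Across the whole table limma called no peak and no gene at an adjusted p under 0.05, 0.0% of 22479 peaks and 0.0% of 6321 genes in either direction. At an unadjusted p under 0.05 limma had 240 peaks and 117 genes, and limma-voom had 0 called peaks, 556 at the unadjusted level, and 1 called gene, MALAT1, lower with emetine, with 2 genes at the unadjusted level.

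The ZNF367 messenger RNA was also more abundant in the emetine library. It had 451 RNA reads with emetine and 89 in the control, 1130 and 567 as normalised reads. The log2 ratio was 1.00 (95% exact binomial interval 0.67 to 1.34), a fold of 1.99, with 1 library per treatment and so no replicate check. A larger RNA ratio was seen in 0.843% of the 5810 genes that had 50 RNA reads or more, and the SD of the log2 ratio over those genes was 0.35. In RNA from whole cultures, more cells that make a transcript and more of it per cell cannot be told apart.

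Set against the RNA, the ratio of the Ago2 total was 1.36, a log2 difference of 0.44. No interval was computed for this difference, and its RNA term comes from 1 library per treatment. With 1 CLIP library left out the CLIP log2 ratio was 1.26 to 1.84, beside the RNA interval of 0.67 to 1.34. The authors' deposited ratio, which divides CLIP by RNA for each peak, had a median log2 of 0.53 over the 31 peaks and ran from -3.62 to 4.31. The median over all recovered peaks was 0.05. By the authors' deposited table, 14 of the ZNF367 peaks had a log2 ratio above 1 and 6 below -1. Over all peaks these shares were 34.2% and 33.2%.

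TXNIP, ZNF711 and PCNA were picked from these libraries in the same way, and share all of them with ZNF367. TXNIP, an arrestin family protein that curbs glucose import, had a CLIP log2 ratio of 1.67 and an RNA log2 ratio of 2.06. PCNA, the sliding clamp of DNA replication, had 2.5 for CLIP and 0.22 for RNA. ZNF711, a zinc finger protein of the ZFX family, had 0.85 for CLIP and -0.22 for RNA. ZNF367 had 1.44 for CLIP and 1.00 for RNA. The differences between these genes were not tested.

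**Figure D2:**
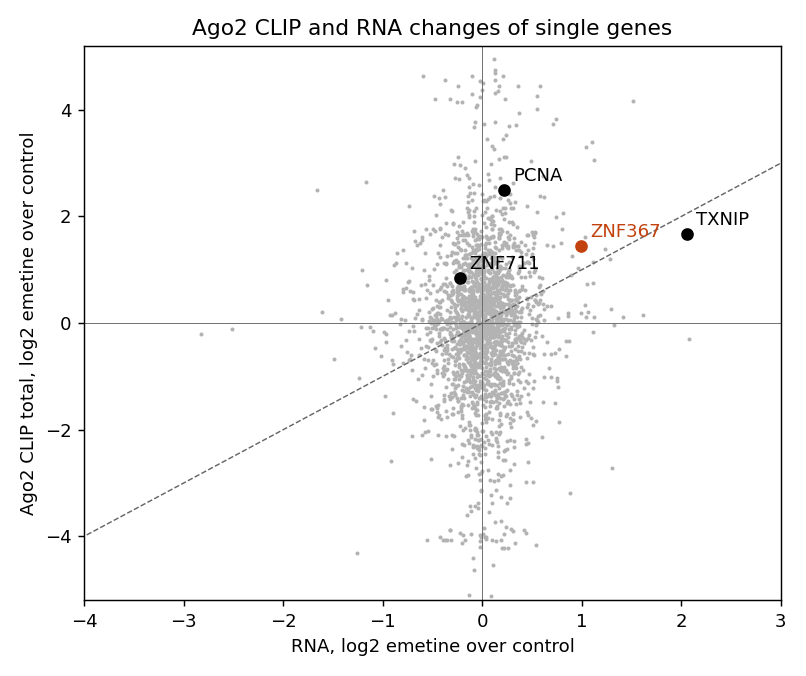
Each grey point is 1 of 2227 genes with at least 50 CLIP reads and 50 RNA reads, by its RNA (x) and Ago2 CLIP (y) log2 ratio of emetine over control; CLIP totals under 3 reads were set at 3, and the dashed line marks equal ratios. ZNF367 lies above the line at 1.00 and 1.44, TXNIP below it at 2.06 and 1.67.

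On the mean of log2(value + 1), 25 of the 31 were higher and 6 lower with emetine, where 50.2% of all peaks were higher and 49.8% lower. The median difference was 1.52 for ZNF367 and 0.01 over all peaks. This measure is not set against the RNA. On the authors' deposited ratio, which divides CLIP by RNA, 19 of the ZNF367 peaks were above 0 and 12 below. Of all peaks, 50.8% were above 0 on that ratio. In 7 peaks (3, 4, 5, 11, 14, 15 and 25) every emetine library lay above every control library, and in 0 peaks below. Over all peaks 2.55% had this order and 1.43% the opposite one. In peak 11 the margin was small, a normalised value of 22.5 in emetine library 3 against 21.8 in control library 3.

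The peaks held 11 to 153 reads over the 6 libraries, with a median of 17.0, against 15 over all peaks of the table, and 21 of the 31 had over 50% of their reads in 1 library. With emetine 11 peaks had reads in all 3 libraries, 11 in 2, 7 in 1 and 2 in none. In the control 2 peaks had reads in all 3 libraries, 6 in 2, 21 in 1 and 2 in none. Control library 1 held only 7 reads on this gene, in 6 peaks. Peaks 15 and 16 alone had reads in all 6 libraries. Of all peaks, 4.78% had reads in all 6 libraries, 20.2% had no emetine read and 17.7% no control read.

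**Figure D3:**
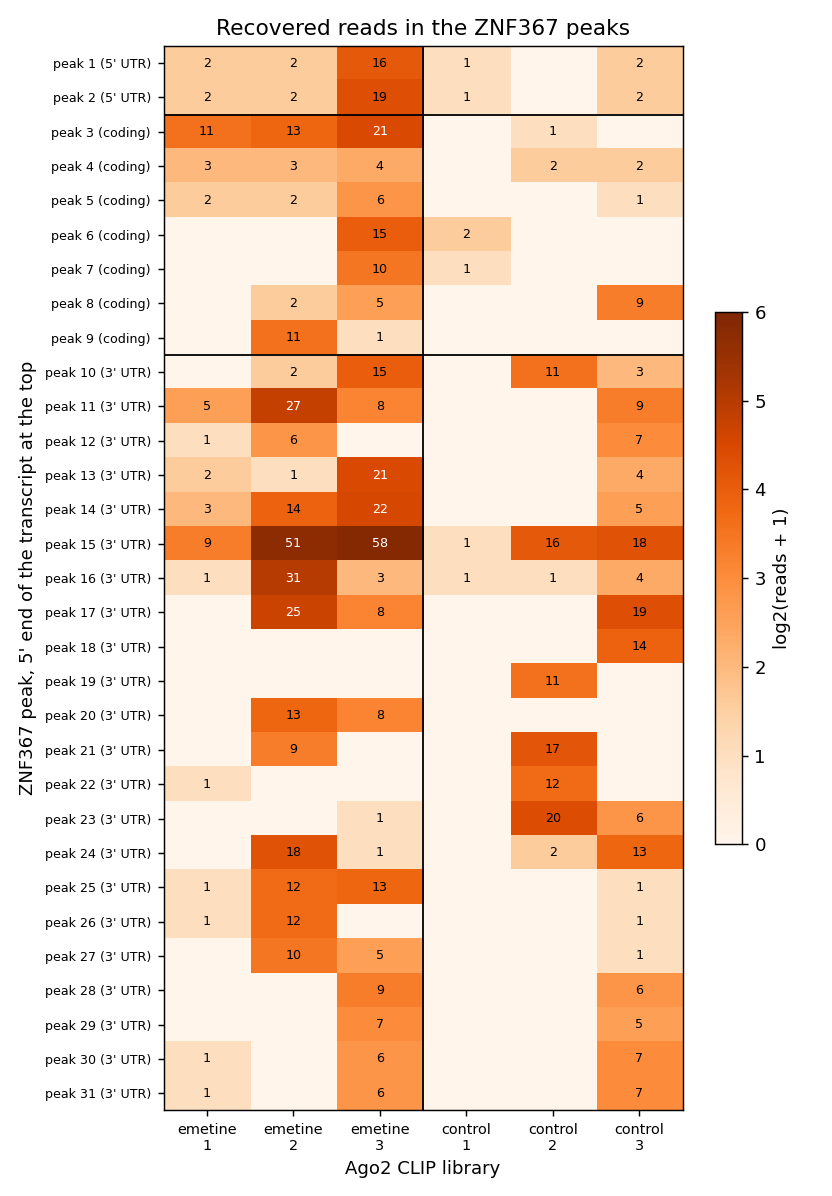
Recovered reads in each ZNF367 peak (rows, 5' end of the transcript at the top; lines separate 5' UTR, coding and 3' UTR peaks) and each Ago2 library (columns, 3 emetine, then 3 control); empty cells are 0 and colour is log2(reads + 1). Peak 15 is filled in all 6 columns, and control library 1 fills 6 rows, control library 2 10 rows and control library 3 23 rows.

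Across the 31 peaks, Spearman's rho between emetine libraries was 0.35, 0.42 and 0.17, and between control libraries -0.02, -0.12 and -0.10. Between an emetine and a control library it ran from -0.25 to 0.41. The control libraries did not rank the peaks alike, and the emetine libraries did so weakly, within the range seen across treatments or barely above it. These are correlations of sparse counts on 1 transcript over neighbouring and partly overlapping peaks, and are given as a description.

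The peak with the most reads was peak 15 in the 3' UTR, from 99150270 to 99150304. It held 9, 51 and 58 reads with emetine, against 1, 16 and 18 untreated. The scaled ratio was 3.75 (95% exact binomial interval 2.55 to 5.63), and the limma log2 difference was 2.26 (SE 1.38). All emetine libraries were above all control libraries. Its share of the gene's reads was 19.6%, 19.2% and 20.1% with emetine, against 14.3%, 17.2% and 12.3% untreated, where 14.3% rests on 1 of 7 reads.

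Around it lay the densest part of the 3' UTR. By the listed classes, coding sequence ends somewhere in the 12 bases between 99150520 and 99150532, and peaks 10 to 16 lie within 344 bases of that boundary. This group was set off after its values were seen, at a gap of 160 bases that is not the largest between 3' UTR peaks. All 7 of its peaks were higher with emetine on the mean of log2(value + 1). Their reads summed to 21, 132 and 127 with emetine, against 2, 28 and 50 in the control, a ratio of 3.89 (95% exact binomial interval 3.02 to 5.05). Split instead at the largest gap, 510 bases after peak 18, the near group had 9 peaks, 8 higher and 1 lower, and a ratio of 3.08 (95% exact binomial interval 2.47 to 3.85).

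Within the group, peak 11 from 99150401 to 99150459 held 5, 27 and 8 reads in emetine libraries, against 0, 0 and 9 untreated, a ratio of 4.94 (95% exact binomial interval 2.36 to 11.6). Peak 14 from 99150343 to 99150387 held 3, 14 and 22 with emetine, against 0, 0 and 5 untreated, a ratio of 8.67 (95% exact binomial interval 3.41 to 28.2). In both peaks the control reads all came from library 3, and the libraries of the treatments did not overlap after scaling. For peak 11 this rests on the weights. By reads in all recovered peaks, its 8 of 96882 in emetine library 3 was a smaller share than its 9 of 103467 in control library 3. Peak 16, from 99150188 to 99150253, held 1, 31 and 3 in emetine libraries, against 1, 1 and 4 untreated, so 1 library gave most of its 41 reads and the groups overlapped. Peak 10, next to the coding boundary, from 99150476 to 99150520, held 0, 2 and 15 with emetine, against 0, 11 and 3 untreated, a ratio of 1.35 (95% exact binomial interval 0.626 to 2.96).

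Of the remaining 15 peaks of the 3' UTR, from 99148248 to 99150028, 9 were higher and 6 lower with emetine on the same measure. Their reads summed to 5, 99 and 64 with emetine, against 0, 62 and 80 untreated, and the ratio was 1.31 (95% exact binomial interval 1.05 to 1.66). Without emetine library 2 it was 0.923 (95% exact binomial interval 0.682 to 1.24), so its direction rests on that library. Both ratios were below the gene's RNA fold of 1.99, which comes from 1 library per treatment. All 6 of the ZNF367 peaks that were lower with emetine lay here, and with the split at the largest gap 5 of them did.

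**Figure D4:**
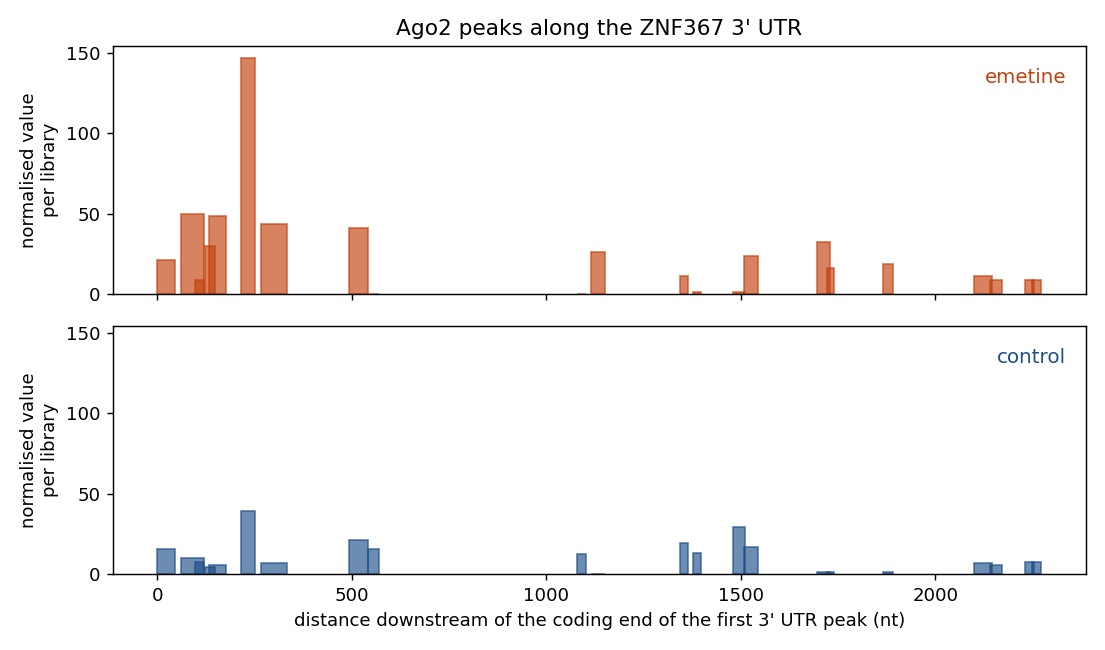
Ago2 peaks along the ZNF367 3' UTR (top, emetine; bottom, control); each bar spans a peak, x is the distance in nt from the coding side of the first 3' UTR peak, and height is reads divided by the summed inverse weights of the 3 libraries. Peak 15, at 216 to 250 nt, is the highest in both panels, and peak 23, at 1479 to 1510 nt, is higher in the control.

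Peak 23, from 99149010 to 99149041, had the lowest deposited ratio, a log2 of -3.62 in the authors' deposited table. Its reads were 0, 0 and 1 with emetine, against 0, 20 and 6 untreated, a scaled ratio of 0.0427 (95% exact binomial interval 0.00104 to 0.26). Peak 24, which overlaps its edge from 99148977 to 99149011, held 0, 18 and 1 reads in emetine libraries, against 0, 2 and 13 untreated, a ratio of 1.41 (95% exact binomial interval 0.678 to 2.98). Its mean log2 difference was -0.015, so the direction of this peak depends on the measure.

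Peak 18, from 99149951 to 99149978, had the next lowest deposited ratio, a log2 of -2.70 in the authors' deposited table. No emetine library had a read there, and the untreated ones had 0, 0 and 14. With 3 reads taken as the floor for the emetine libraries together, it was at least 4.2-fold lower with emetine. Its neighbour, peak 17, from 99149979 to 99150028, held 0, 25 and 8 in emetine libraries, against 0, 0 and 19 untreated, a ratio of 1.93 (95% exact binomial interval 1.07 to 3.59). The control reads of both came from library 3 alone.

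At the far end of the 3' UTR, peak 25, from 99148791 to 99148825, held 1, 12 and 13 in emetine libraries, against 0, 0 and 1 untreated, a ratio of 28.9 (95% exact binomial interval 4.75 to 1180). Its deposited log2 ratio relative to RNA, 2.99, stands in the authors' deposited table. The last peak of the transcript, peak 31, from 99148248 to 99148271, held 1, 0 and 6 with emetine, against 0, 0 and 7 untreated, a ratio of 1.11 (95% exact binomial interval 0.333 to 3.71). No difference was detectable there at this depth.

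Coding and 5' UTR peaks of ZNF367 were all higher with emetine on the mean of log2(value + 1), although the read total of peak 8 was not. The 7 coding peaks held 109 reads in emetine libraries and 18 in untreated ones, a scaled ratio of 6.73 (95% exact binomial interval 4.06 to 11.8). The 2 overlapping 5' UTR peaks held 43 and 6 reads, a ratio of 7.96 (95% exact binomial interval 3.37 to 22.9), and a read in the overlap can count in both. For the 22 peaks of the 3' UTR it was 2.24 (95% exact binomial interval 1.90 to 2.65), from 448 and 222 reads. The gene's RNA fold of 1.99 lay within that interval. These ratios are not set against the RNA. Single libraries weighed heavily on the thinner regions. Of the 43 emetine reads in the 5' UTR, 35 came from library 3, and without it the ratio there was 2.67 (95% exact binomial interval 0.811 to 9.32). Without emetine library 2, control library 2 or control library 3 it was 12.3, 4.8 or 12.8. The coding ratio was 10.9 without control library 3. In the authors' deposited table, where CLIP is set against RNA, the coding peaks did not all go the same way. Peaks 6, 7 and 8 had log2 ratios of -0.548, -0.432 and -0.26, and peaks 3, 4, 5 and 9 were above 0. The median deposited log2 ratio of ZNF367 peaks was 1.32 in the 5' UTR, 1.15 in coding sequence and 0.12 in the 3' UTR. Over all peaks of the authors' deposited table these medians were 0.25, 0.30 and -0.17, the 3' UTR likewise being lowest.

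Peak 3, in coding sequence from 99180217 to 99180250, had the highest deposited ratio, a log2 of 4.31 in the authors' deposited table. It held 11, 13 and 21 reads with emetine, against 0, 1 and 0 untreated. The scaled ratio was 50 (95% exact binomial interval 8.53 to 2020), resting on a single control read, and the limma log2 difference was 5.31 (SE 1.88). It was the only ZNF367 peak besides peak 15 with at least 9 reads in every emetine library.

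The other coding peaks had fewer reads. Peak 4 had 3, 3 and 4 reads with emetine, against 0, 2 and 2 untreated. Peak 5 had 2, 2 and 6 with emetine, against 0, 0 and 1 untreated. Peaks 6 and 7, which end at the same base, 99150739, took their emetine reads from library 3 alone, 15 and 10, and their control reads from library 1 alone, 2 and 1. Peak 8 held 0, 2 and 5 reads with emetine, against 0, 0 and 9 untreated, a ratio of 0.864 (95% exact binomial interval 0.274 to 2.61), and peak 9 held 0, 11 and 1 against none.

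Peak 1, the first of the transcript, from 99180474 to 99180504, held 2, 2 and 16 with emetine, against 1, 0 and 2 untreated, a ratio of 7.41 (95% exact binomial interval 2.20 to 38.9). Peak 2, which overlaps it from 99180427, held 2, 2 and 19 against 1, 0 and 2. In both, emetine library 3 gave most of the reads and the groups overlapped after scaling.

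The shares of the gene's reads by region overlapped between treatments. The 3' UTR share was 56.5%, 86.8% and 66.3% with emetine, against 28.6%, 96.8% and 89.0% untreated. Control library 1 gave 2 of 7 reads (Clopper-Pearson 95% interval 3.67 to 71.0%). The means were 69.9% ± 15.5 with emetine and 71.5% ± 37.3 in the control (SD, n = 3 each). Without control library 1 the pooled control share was 92.1%. Pooled over reads it was 74.7% (Clopper-Pearson 95% interval 71.0 to 78.1) with emetine and 90.2% (85.8 to 93.6) in the control. Over the whole table the pooled 3' UTR share was 50.9% with emetine and 57.1% in the control.

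The genes with the most similar pattern were looked for over all 8 libraries. Likeness was the Euclidean distance of log2(value + 1), with CLIP and RNA values each centred on the gene's own mean, among 440 other genes with at least 25% of ZNF367's mean CLIP value. The nearest were TXNIP (distance 1.11), LRIG3 (1.19), LMNB1 (1.32), SDHB (1.33) and JUN (1.37), where the median over the 440 genes was 3.58.

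LRIG3 is a membrane protein with leucine-rich repeats, LMNB1 is lamin B1 of the nuclear lamina, SDHB is a subunit of respiratory complex II and JUN is an immediate early transcription factor. Since likeness was taken over the same libraries, in which ZNF367 was higher with emetine, ratios above 0 follow from the choice and support nothing. Their CLIP log2 ratios were 0.96 for LRIG3, 1.48 for LMNB1, 1.37 for SDHB and 1.21 for JUN. Their RNA log2 ratios were 0.47 for LRIG3, 0.23 for LMNB1, 0.17 for SDHB and 1.28 for JUN. With Pearson's r over the CLIP libraries in place of the distance, 1 of these 5 genes was again among the nearest 5.

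Ratios of read totals were also set out for groups of genes. The first group took symbols made of ZNF and digits only, so that ZNF512B was not in it. Of 139 other genes of this group with peaks, 40 had at least 50 CLIP reads. Of those 40, 18 had a log2 ratio of read totals above 0 and 22 below, and 7 were above 1. Their median was -0.06, where that of all genes with at least 50 CLIP reads was 0.00. Over all genes with at least 50 CLIP reads, 18.7% were above 1 and 11.4% had a larger ratio than ZNF367. ZNF146, ZNF180, ZNF655 and ZNF680 had larger ratios than ZNF367, at 1.84, 1.77, 1.67 and 2.17. The ZNF genes with the most reads were ZNF711, ZNF238 (-0.74) and ZNF703 (0.52). The median RNA log2 ratio was 0.17 over 132 genes of this group and also 0.17 in each of the other gene groups below, against 0.01 over all genes.

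Genes of the G1/S transition and DNA replication were examined as the second group. Of 24 genes 19 had peaks and 14 had at least 50 CLIP reads, 6 of them above 0, 8 below 0 and 3 above 1, with a median log2 ratio of -0.27. The share above 1 over all genes with at least 50 CLIP reads was 18.7%. PCNA and MCM6, a subunit of the replicative helicase, had larger ratios than ZNF367, at 2.5 and 2.42, as did 11.4% of all such genes. E2F3 and E2F1, transcription factors of S phase entry, had -0.66 and -0.10.

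In the third group, 18 targets of the miR-15/16 seed family from the literature, 17 had peaks and 13 at least 50 CLIP reads, 6 above 0, 7 below 0 and 1 above 1, with a median of -0.22. WEE1, a kinase that holds cells before mitosis, had 0.62, and the cyclins CCND2 and CCND1 had -0.22 and -0.27. None of these 13 reached the ratio of ZNF367. Over all genes with at least 50 CLIP reads, 18.7% were above 1 and 11.4% had a larger ratio than ZNF367. Among the 36 other genes with at least 31 peaks, the median was 0.02, the range -0.86 to 1.67, and TXNIP was the only one above 1.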

How the data were processed

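The one table used gives, per the file headers, the position, region class, symbol and RefSeq transcript of each peak, with a log average and a log ratio (emetine over none) of normalised CLIP. The authors deposited these values as natural logs, which the headers do not state and which follows from the values. Per the submitters' processing notes, the work used the build hg19 and the tools TopHat, Bowtie 0.12.8 and DESeq without saying what each did; the peak caller is not given in the sources used here.

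By the values themselves, a treatment's number is built from whole reads: each of 3 CLIP libraries gives ln(1 + weighted reads), these are averaged, and the like term for RNA is subtracted. Weights and whole reads were searched from the table alone and found for 22479 of 22506 peaks (99.9%) within 5e-14. Matches to values shifted on purpose were 20 and 19 of 4938 for emetine and control. Shifted values were not searched over the wider ranges of reads that were tried for real peaks left without a match. Where more than 1 RNA read number fitted a transcript equally well, the one with the fewest CLIP reads was taken. The recovery was checked on simulated data. All 31 ZNF367 peaks were recovered. The antibodies of recovered libraries are unknown. The planned limma fit (limma 3.58.1, R 4.3.3) ran with trend on log2(value + 1) over all peaks or gene sums. It used Benjamini-Hochberg at 0.05 and no filter, and had no term for antibody. Within a treatment every library had a different antibody, so the scatter behind its p-values mixes antibody differences with aliquot differences. That scatter holds no variation between cultures, since each treatment had 1 culture. The plan named a count test only for a table of raw counts, and the deposited unit is a log. On the recovered reads a count test was possible but was not run, and limma-voom was the alternative. Ratios are read totals scaled by the summed inverse weights, with exact intervals from scipy 1.17.1 at 95% and a floor of 3 reads.

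Members, lists, microRNAs and the naming rule were chosen with earlier results of these data known. The rule named the 8 peaks with most reads, the 2 highest and 2 lowest deposited ratios, the end peaks, the 5 nearest genes and up to 3 genes per list; other peaks and genes were named after their values were seen. Alternatives covered scaling, constants, filters, repeated or overlapping peaks, limma-voom and each library left out.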

Additional observations from a re-analysis of the deposited data

How the results depend on the processing

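ZNF367 stayed above 0 in each alternative run for its total, its RNA and its median deposited ratio. The log2 ratio of the total was 1.26 to 1.84 with 1 library left out and 2.86 from the shallowest libraries alone, an alternative added after the data were seen, as was keeping 1 peak per overlap (1.56). The number of higher peaks was 21 to 27 with 1 library left out, 19 of 21 where only peaks seen in 3 or more libraries were kept, and 18 of 23 with 1 peak per overlap. The median deposited log2 ratio was 0.75 over the 29 peaks at or above the table's median average and 0.64 with repeated peaks counted once. The 3' UTR share was 65.0% to 82.4% with emetine and 86.3% to 92.1% in the control with 1 library left out. Limma called 0 peaks and 0 genes with each library left out, and limma-voom called 1 gene; the cause was not tested. Of the 5 nearest genes 1 was kept with Pearson's r. No paired analysis was possible because no header ties the recovered libraries to antibodies, and values were not used to assign them. The ratios by region without each library and the other split of the 3' UTR were also added after the data were seen. With 7 reads of ZNF367 in control library 1 and a median of 17.0 reads per peak, depth limits each single peak.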
